A study of Mus musculus with 29 samples.

Results

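Methylation was examined at 8 genes that mark smooth muscle cells and fibroblasts, namely Acta2, Tagln, Myh11, Cnn1, Des, Myocd, Pdgfra and Pdgfrb. The members were the windows that the table of percent methylation assigns to these genes, which gave 80 windows of 260686 in all, and all 80 had a value in each of 29 libraries. Myocd had 20 windows, Pdgfra 18, Myh11 16, Pdgfrb 12, Cnn1 5, Des 5, Acta2 3 and Tagln 1. Lung DNA of 13-week-old female Balb/c mice was read by whole-genome methyl-sequencing, where an enzymatic conversion leaves only methylated cytosines to be read as cytosine. Dams received saline (Sham) or fine particulate matter (PM, PM2.5) over the developmental window, and offspring were sensitised to and then inhaled OVA, an egg protein that induces allergic airway disease, or received PBS and saline alone. This gave 7 Sham libraries (saline dams, no OVA), 7 Sham-OVA libraries (saline dams, OVA), 7 PM libraries (PM2.5 dams, no OVA) and 8 PM-OVA libraries (PM2.5 dams, OVA). The comparisons asked whether OVA changed methylation at these genes, and whether the dam's exposure changed that response. Litters are not given for the libraries, so a p-value measures the spread between these offspring and not between dams.

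Smooth muscle cells line airways and blood vessels and contract through filaments of smooth muscle actin and myosin. The contractile genes are switched on together by serum response factor (SRF) with its partner myocardin, and they commonly carry little methylation near their start in the cells that use them. Pdgfra and Pdgfrb encode the receptors for platelet-derived growth factors (PDGF) and are known as markers of lung fibroblasts and of pericytes with smooth muscle, respectively. The tissue is a mixture of cell types, so a change in the share of a cell type and a change of methylation within cells cannot be told apart here. No RNA was analysed here, so the cell types behind each value could not be checked by expression.

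Sham replicate 1 stood apart from the other libraries. Methylation was given there for 1224 of 1230 Y-chromosome windows, while each of the other 28 libraries had 29 to 46, although the study used female offspring. Without that library, 40 member windows in place of 42 changed after OVA in Sham offspring (18 rises, 22 falls), and the 14 rises and 29 falls in PM offspring stayed the same in number. The table gives neither counts nor coverage, so the depth behind a percentage is unknown.

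For 3 of the 8 genes the bases just upstream of the start are shown, as examples of the sequence in start windows where methylation differed after OVA in at least one arm of the study. The stretches are from the promoter table of RefSeq (GRCm38.p6) and end before the first annotated exon base, and all 3 genes lie on the plus strand. They are chr1:75360042-75360291 for Des, chr5:75152001-75152250 for Pdgfra and chr9:22099003-22099215 for Cnn1. Capitals mark the CpG dinucleotides, where methylation is measured, and all other bases are in lower case.
Des: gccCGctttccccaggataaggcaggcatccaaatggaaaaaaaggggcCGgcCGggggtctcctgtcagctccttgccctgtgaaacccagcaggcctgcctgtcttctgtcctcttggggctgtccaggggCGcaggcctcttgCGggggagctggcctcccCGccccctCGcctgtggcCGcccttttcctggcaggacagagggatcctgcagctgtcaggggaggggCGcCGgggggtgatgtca
Pdgfra: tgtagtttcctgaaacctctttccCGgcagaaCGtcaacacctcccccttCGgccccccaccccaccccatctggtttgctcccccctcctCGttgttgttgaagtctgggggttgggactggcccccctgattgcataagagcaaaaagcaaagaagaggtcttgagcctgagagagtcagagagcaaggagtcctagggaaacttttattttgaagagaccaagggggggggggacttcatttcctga
Cnn1: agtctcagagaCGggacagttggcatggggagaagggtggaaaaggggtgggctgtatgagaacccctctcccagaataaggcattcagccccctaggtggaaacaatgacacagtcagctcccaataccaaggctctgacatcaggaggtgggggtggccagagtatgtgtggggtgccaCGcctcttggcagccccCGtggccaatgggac
The Des stretch held 10 CpG in 250 bases, the Pdgfra stretch 4 in 250 bases and the Cnn1 stretch 3 in 213 bases. In full promoters of 300 bases (250 before the start), Des had 11 CpG, Cnn1 6 and Pdgfra 5, against a median of 7 over 32851 promoters. The CArG box, the element that SRF binds, had no match to its full consensus in these 3 promoters on either strand. It was found in 1.63% of all promoters of the same length. Absence of a match says only that those letters are not in these promoters of 300 bases. The rest of the start windows was not searched. Promoters of Acta2, Tagln, Myh11, Myocd and Pdgfrb are not shown.

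Each window held 50 to 52 CpG dinucleotides and spanned 510 to 8681 bp, and 11 of the 80 windows had no exonic base of their gene. The windows covered 81.9% of the annotated length of Acta2, 68.0% of Tagln and at least 98.2% of each of the other 6 genes. At baseline, the 5 windows nearest the start of Pdgfra were almost unmethylated, with Sham means of 0.449 to 4.02%. The windows that hold the start of Myocd (4.99%), Des (8.38%), Cnn1 (20.9%) and Pdgfrb (23.4%) were also low in Sham libraries. By contrast, those of Tagln (52.8%), Acta2 (54.9%) and Myh11 (55.2%) were near the middle of the scale.

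**Figure D1:**
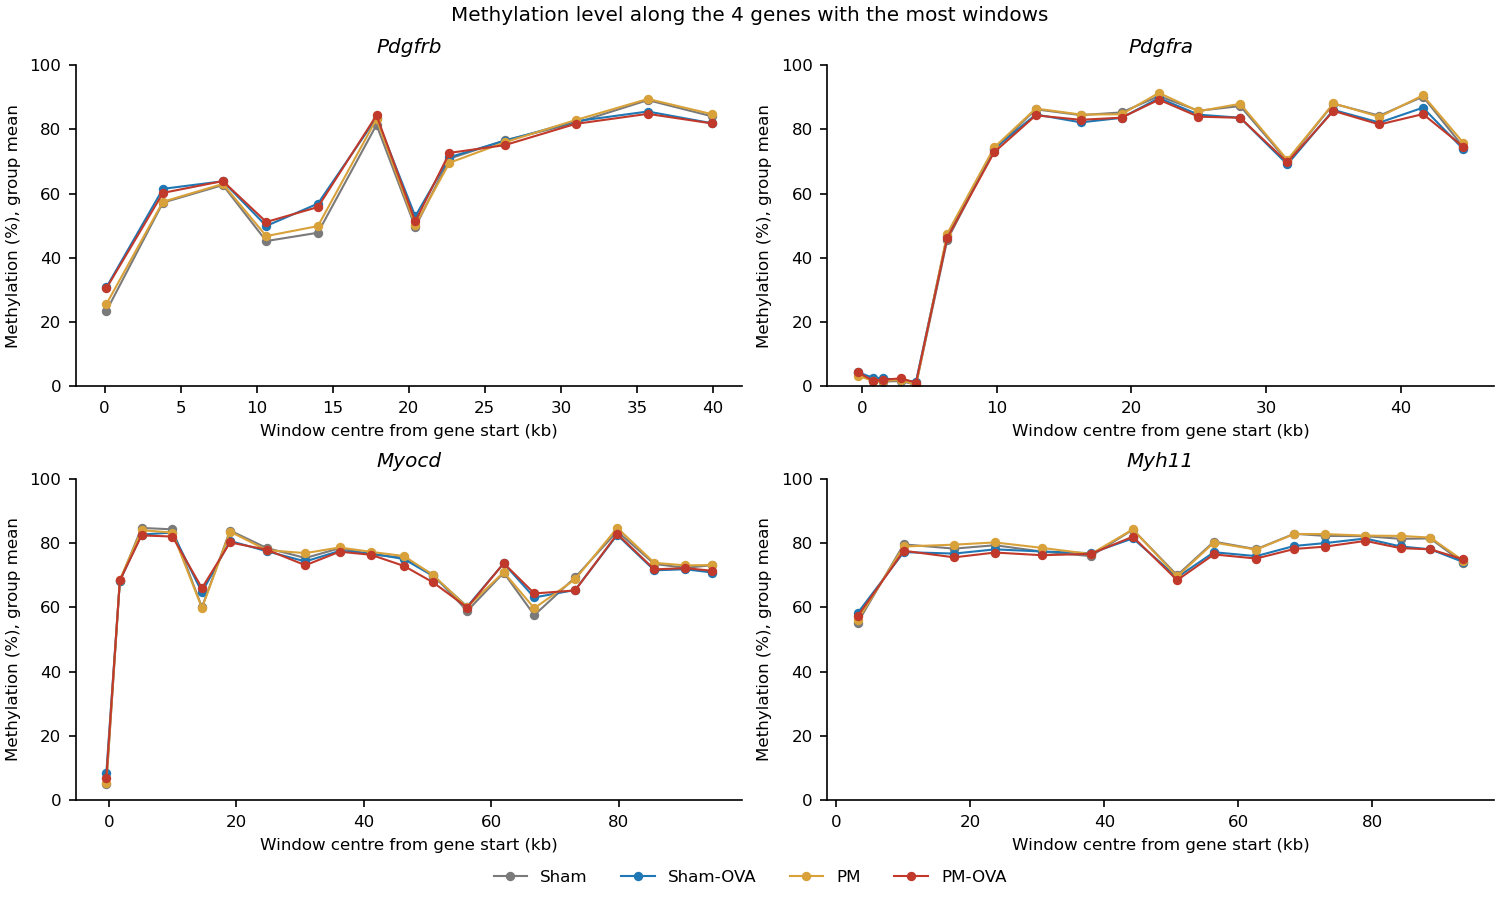
Group mean methylation (%) of each window (points) against the distance of the window centre from the gene start (kb) for Pdgfrb, Pdgfra, Myocd and Myh11, with 1 line for each of the 4 groups. The first 5 Pdgfra windows and the first Myocd window lie near 0, and the 4 lines run close together along all 4 genes.

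After OVA, methylation rose in the start windows of most of these genes and fell in most of their highly methylated inner windows, by a few percentage points each. In Sham offspring, 42 of the 80 windows changed, of which 19 rose and 23 fell, where a change is an adjusted p under 0.05 in limma's moderated test over all 259167 tested windows. Over all tested windows, 13.3% rose and 22.3% fell. In PM offspring, 14 windows rose and 29 fell, against 9.26% and 34.8% of all tested windows. Differences were small, from -3.90 to 9.07 points in Sham and from -5.85 to 6.51 points in PM offspring, with medians of -0.53 and -1.28 points. The corresponding medians over all tested windows were -0.41 and -1.03 points. Consequently 0 member windows reached the 10-point difference that defines a differentially methylated region (DMR). Over all tested windows the share was 0.775% in Sham and 0.584% in PM offspring. At shares this low, 0 of 80 windows does not set the members apart. After each library was centred on the median of all windows, the split was 21 rises and 17 falls in Sham and 20 rises and 17 falls in PM offspring, so the balance of falls over rises depended on this scaling. The same held over all tested windows, of which 18.3% rose and 17.8% fell in Sham and 18.9% rose and 18.7% fell in PM offspring after centring.

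The responses of the 2 arms were set side by side. Of the 80 windows, 12 rose in both arms, 19 fell in both and 0 changed in opposite directions, while 26 changed in neither. Over all tested windows, 7.57% rose in both arms, 19.7% fell in both and 47.7% changed in neither, with 46 windows called in opposite directions. A further 11 windows passed the test in Sham alone (7 rises, 4 falls) and 12 in PM alone (2 rises, 10 falls). The 2 arms share no library, and the OVA differences of the 80 windows had a Pearson's r of 0.909 and a Spearman's rho of 0.883 between arms, a description across windows that are neighbours in the same genes. Over all tested windows these values were 0.879 and 0.843. Groups separated without overlap in few windows. In Sham, 3 windows had all OVA libraries above all unchallenged libraries and 6 had all below (3.15% and 5.43% of all tested windows). In PM offspring these counts were 1 and 7 (1.65% and 10.3% of all tested windows).

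**Figure D2:**
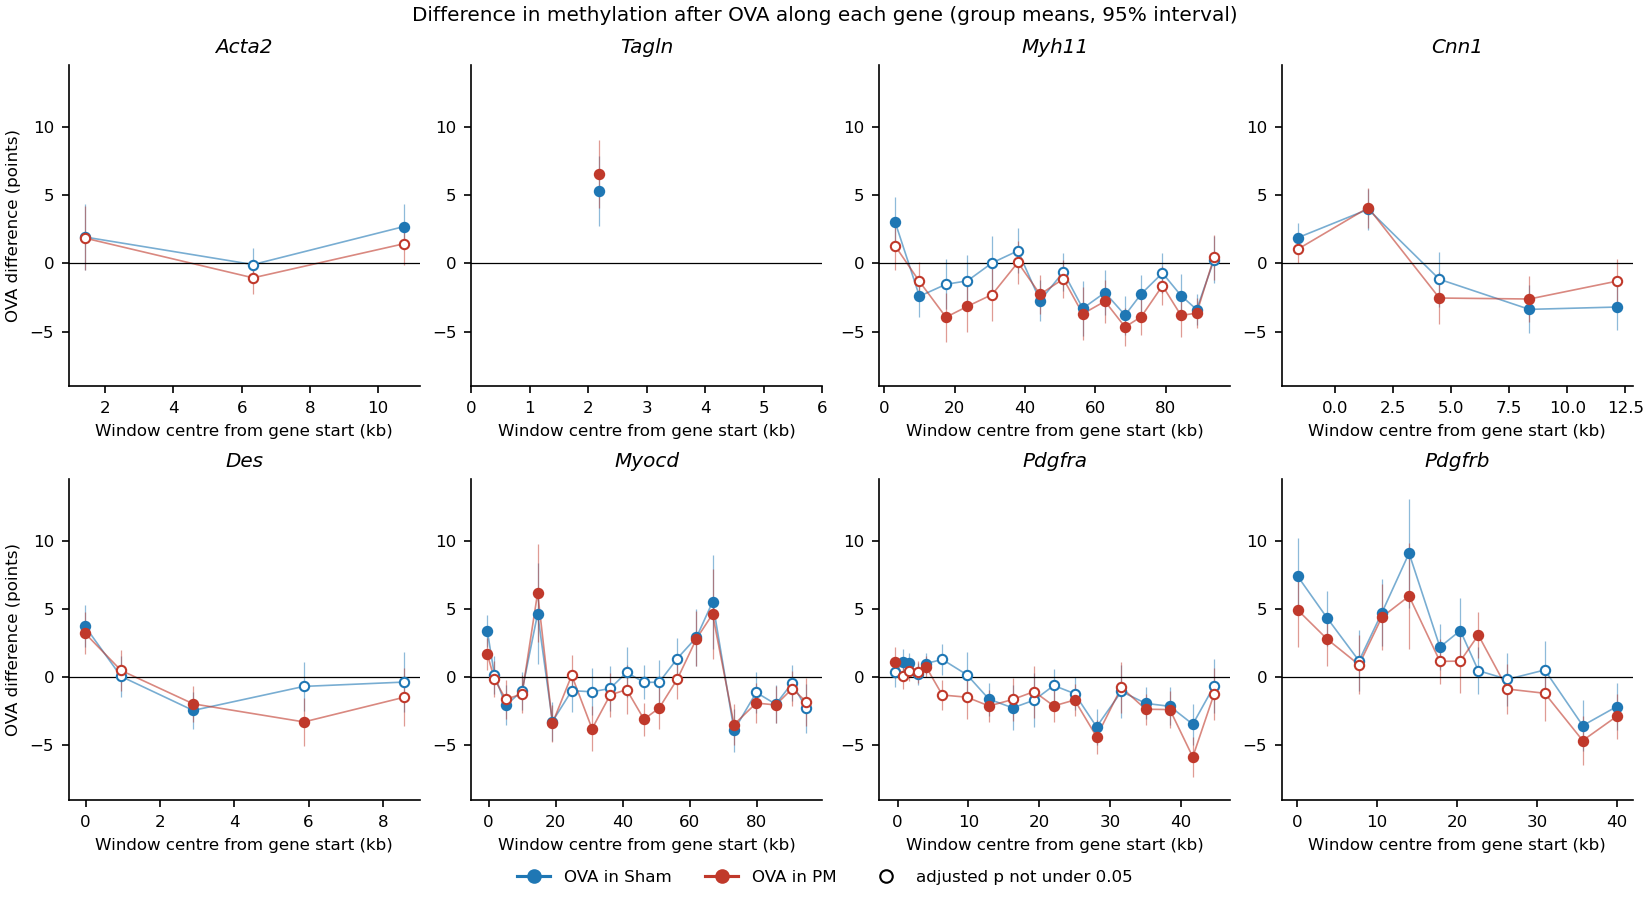
Difference in methylation after OVA (percentage points, group means with the 95% interval of the fit on the percent scale) against the distance of each window centre from the gene start (kb) for the 8 genes, in Sham (blue) and PM (red) offspring. Filled points have an adjusted p under 0.05, and the window nearest each start lies above 0 in both arms.

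Immune markers moved with the same challenge. The marker lists were chosen with earlier results of these data known. Over all tested windows, 13.3% rose and 22.3% fell in Sham, and 9.26% rose and 34.8% fell in PM offspring. Of the 92 windows of 15 haematopoietic genes, 19 rose and 42 fell after OVA in Sham, and 16 rose and 49 fell in PM offspring. The mean over these windows ranged from 69.3 to 70.6% in Sham and from 69.6 to 70.5% in PM libraries. It ranged from 65.8 to 67.3% in Sham-OVA and from 65.7 to 67.1% in PM-OVA libraries, with no overlap. By contrast, the mean over the 80 windows of smooth muscle and fibroblast genes overlapped between groups, from 65.4 to 66.6% in Sham, 65.0 to 67% in Sham-OVA, 65.5 to 67.4% in PM and 65.0 to 66.3% in PM-OVA. Endothelial genes (88 windows) had 36 rises and 12 falls in Sham and 32 rises and 19 falls in PM offspring. Epithelial genes (46 windows) had 14 rises and 4 falls in Sham and 8 rises and 6 falls in PM offspring. In PM offspring, centring gave 42 rises and 12 falls for endothelial, 16 and 2 for epithelial and 23 and 41 for haematopoietic genes. Over all tested windows, centring gave 18.9% of rises and 18.7% of falls in PM offspring. The part of cell composition in the values at the 8 genes was not tested.

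The windows that hold the gene start were higher on average after OVA in both arms for all 8 genes, in this set singled out after its values were seen. Of these 8 windows, 6 rose and 0 fell in Sham (Tagln, Myh11, Cnn1, Des, Myocd and Pdgfrb), and 5 rose and 0 fell in PM offspring (Tagln, Des, Myocd, Pdgfra and Pdgfrb). Among 33550 windows that hold the start of their gene, 9.41% rose and 19.3% fell in Sham, and 6.55% rose and 31.5% fell in PM offspring. Without Sham replicate 1 these counts stayed at 6 and 5. With centred libraries all 8 start windows were called in PM offspring, including those of Acta2, Myh11 and Cnn1 (adjusted p = 0.0116, 0.0113 and 0.00144, limma).

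**Figure D3:**
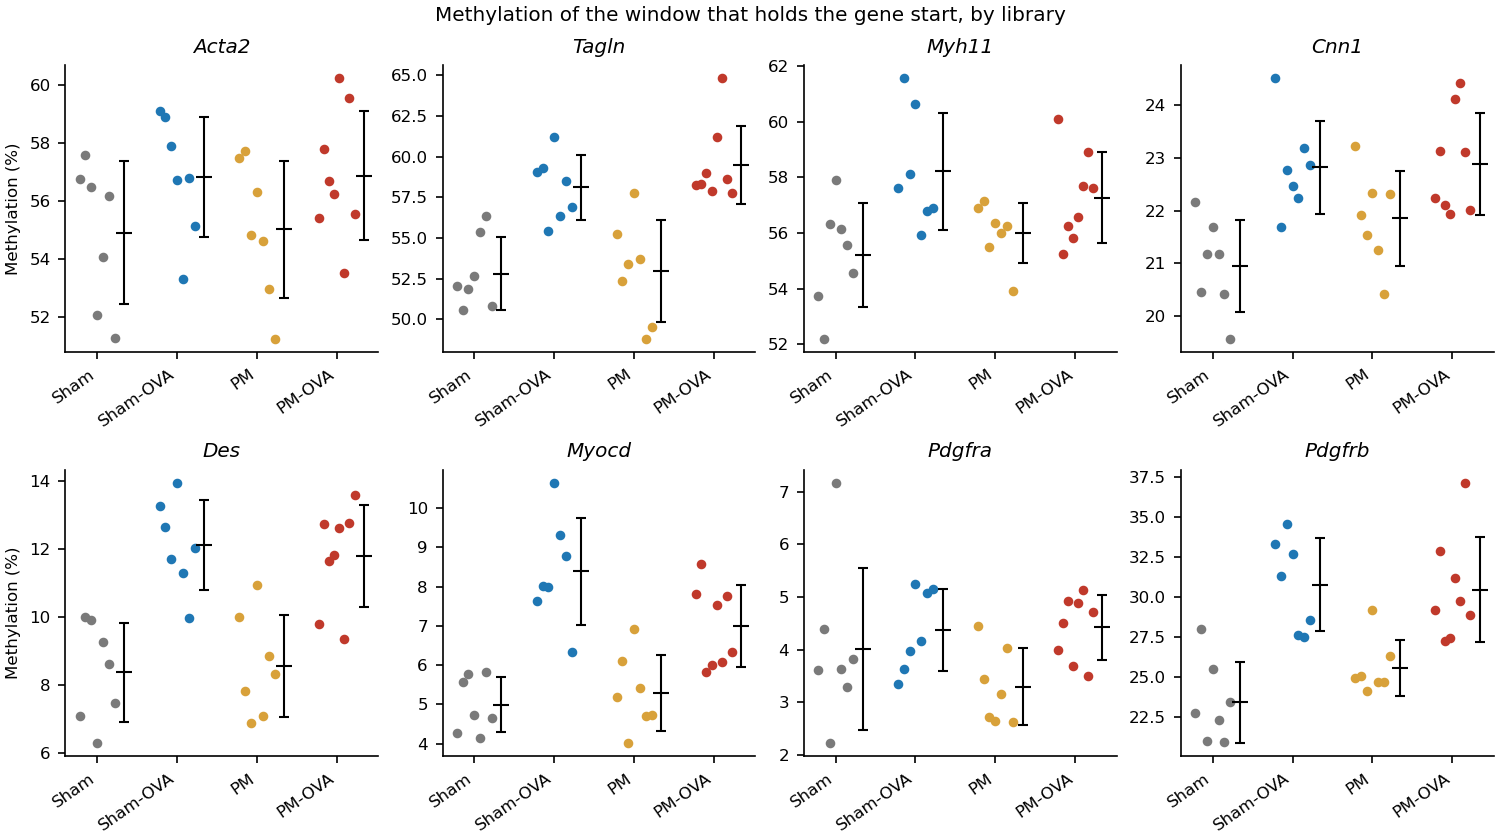
Methylation (%) of the window that holds the gene start in each library (points), by group, for the 8 genes, with the group mean and SD (n = 7, 7, 7 and 8) beside the points. Each vertical axis has its own range and does not start at 0. Sham-OVA and PM-OVA means lie above the respective unchallenged means in every panel.

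Acta2 encodes smooth muscle actin, the main actin of the contractile filaments. Its start window (chr19:34252399-34255982, which takes in 614 exonic bp and bases upstream) ranged from 51.3 to 57.6% (median 56.2%) in Sham and from 53.3 to 59.1% (median 56.8%) in Sham-OVA. It ranged from 51.3 to 57.7% (median 54.8%) in PM and from 53.5 to 60.2% (median 56.5%) in PM-OVA. The groups overlapped widely, and the differences of 1.93 points in Sham (95% interval -0.46 to 4.32, limma adjusted p = 0.222) and 1.85 points in PM offspring (-0.47 to 4.16, adjusted p = 0.207) did not pass the test. The last Acta2 window (chr19:34243485-34246202, 331 exonic bp) rose in Sham offspring from 70.7% ± 0.926 to 73.4% ± 1.70 (SD, n = 7 each, adjusted p = 0.0126 with limma). In PM offspring the difference there was 1.43 points (adjusted p = 0.174). It passed the test there without PM replicate 1 (adjusted p = 0.0232) and with centred libraries (0.00537, limma). The middle window (chr19:34246273-34252242) differed by -0.09 and -1.07 points (adjusted p = 0.928 and 0.154).

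Tagln, which encodes the actin-binding protein transgelin (SM22), had a single window (chr9:45931677-45936086) that holds its start and most of the gene, and that also overlaps the annotated gene Gm48529. Methylation ranged from 50.6 to 56.4% (median 52.1%) in Sham and from 55.5 to 61.2% (median 58.5%) in Sham-OVA. It ranged from 48.8 to 57.8% (median 53.4%) in PM and from 57.8 to 64.8% (median 58.5%) in PM-OVA. All 8 PM-OVA libraries lay above all 7 PM libraries, although the nearest pair both round to 57.8%, while Sham and Sham-OVA overlapped narrowly. The rise was 5.31 points in Sham (log2 ratio of methylated to unmethylated signal 0.30 ± 0.08 SE, adjusted p = 0.00235) and 6.51 points in PM offspring (0.38 ± 0.07 SE, adjusted p = 0.000159, limma).

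Myh11 encodes smooth muscle myosin heavy chain, the motor of contraction and a marker of mature smooth muscle. Its start window (chr16:14284941-14291500, mostly intronic) rose in Sham offspring from 55.2% ± 1.88 to 58.2% ± 2.10 (SD, n = 7 each, adjusted p = 0.015 with limma), and 7 of 7 Sham-OVA libraries lay above the Sham mean. In PM offspring, the same window differed by 1.27 points (95% interval -0.49 to 3.03, adjusted p = 0.275). The body of the gene went the other way. Of the 16 windows, 8 fell and 1 rose in Sham (22.3% and 13.3% of all tested windows). In PM offspring 9 fell and 0 rose (34.8% and 9.26% of all tested windows).

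The 2 inner Myh11 windows with the smallest p-values show this fall. The window at chr16:14221419-14224542, centred 68392 bp from the start, ranged from 81.7 to 84.6% (median 82.7%) in Sham and from 77.3 to 81.7% (median 78.9%) in Sham-OVA. It ranged from 81.0 to 84.9% (median 82.8%) in PM and from 76.4 to 79.2% (median 78.4%) in PM-OVA, and neither arm overlapped, although the nearest Sham and Sham-OVA libraries both round to 81.7%. It fell by 3.80 points in Sham (adjusted p = 0.000153) and fell by 4.67 points in PM offspring (adjusted p = 5.93e-06, limma). The window at chr16:14200725-14204599, towards the end of the gene, fell by 3.39 points in Sham and fell by 3.66 in PM offspring (adjusted p = 5.2e-05 and 8.54e-06).

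Cnn1 encodes calponin, which binds actin and restrains the myosin motor. The start window (chr9:22095755-22099447) lies mainly upstream of the gene and rose in Sham offspring from 20.9% ± 0.869 to 22.8% ± 0.886 (SD, n = 7 each, adjusted p = 0.0086 with limma). In PM offspring the difference was 1.03 points (adjusted p = 0.122). The next window (chr9:22099448-22101837), which covers the 5′ part of the gene, ranged from 29.5 to 33.0% (median 31.1%) in Sham and from 34 to 36.8% (median 35%) in Sham-OVA, without overlap. It ranged from 28.6 to 32.0% (median 30.1%) in PM and from 30.4 to 35.6% (median 34.5%) in PM-OVA, where 1 library reached into the PM range. It rose by 3.96 points in Sham (adjusted p = 0.000371) and by 4.07 points in PM offspring (adjusted p = 0.000114, limma). The window at chr9:22105578-22109591 fell in both arms, and that at chr9:22101838-22105577 fell in PM offspring. The last window (chr9:22109592-22113098) fell in Sham, but it holds only 39 bp of Cnn1 and overlaps Elof1.

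Des encodes desmin, the intermediate filament of muscle cells. Its start window (chr1:75359947-75360668), only 722 bp long and thus dense in CpG, holds the Des sequence printed above. It ranged from 6.30 to 9.99% (median 8.62%) in Sham and from 9.98 to 14.0% (median 12%) in Sham-OVA, and the 2 groups barely touched. The range was 6.88 to 11% (median 8.32%) in PM and 9.35 to 13.6% (median 12.2%) in PM-OVA. The rise was 3.75 points in Sham (log2 ratio 0.55 ± 0.11 SE, adjusted p = 0.00031) and 3.23 points in PM offspring (0.48 ± 0.11 SE, adjusted p = 0.000745, limma). The neighbouring window (chr1:75360669-75361897), also low at 15.5% in Sham, differed by only 0.05 and 0.49 points (adjusted p = 0.981 and 0.591).

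Myocd encodes myocardin, the SRF coactivator that turns on the contractile genes. Its start window (chr11:65269764-65270982, 993 bp of it upstream) had the smallest p of all 80 windows in Sham offspring. It ranged from 4.14 to 5.82% (median 4.73%) in Sham and from 6.34 to 10.7% (median 8.01%) in Sham-OVA, without overlap. It ranged from 4.01 to 6.91% (median 5.20%) in PM and from 5.81 to 8.58% (median 6.94%) in PM-OVA, with overlap. The rise was 3.39 points in Sham (log2 ratio 0.69 ± 0.11 SE, adjusted p = 1.62e-05) and 1.70 points in PM offspring (0.37 ± 0.11 SE, adjusted p = 0.0052, limma). The test of the difference between the arms gave -1.70 points with an unadjusted p of 0.0423 and an adjusted p of 0.668 (limma), so the smaller rise in PM offspring was not shown to differ.

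Along the body of Myocd, both rises and falls were called. Over its 20 windows, 4 rose and 4 fell in Sham (13.3% and 22.3% of all tested windows). In PM offspring 4 rose and 7 fell (9.26% and 34.8% of all tested windows). Picked after their values were seen, the windows at chr11:65253693-65257042 (intronic, 4.64 and 6.17 points) and chr11:65200717-65205704 (5.50 and 4.61 points) rose in both arms, and both began near 60%, the former at 60.1% and the latter at 57.6% in Sham. The window with the smallest p in PM offspring (chr11:65248220-65253692, intronic) directly adjoins the first of these and fell by 3.25 points in Sham and fell by 3.38 in PM offspring (adjusted p = 0.000501 and 0.000196, limma). It began at 84.0% in Sham.

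Pdgfra encodes the PDGF receptor alpha of lung fibroblasts. The start window (chr5:75151063-75152825), which holds the Pdgfra sequence printed above, ranged from 2.23 to 7.18% (median 3.64%) in Sham, 3.35 to 5.26% (median 4.16%) in Sham-OVA, 2.63 to 4.46% (median 3.16%) in PM and 3.51 to 5.13% (median 4.61%) in PM-OVA. All groups overlapped. It rose by 1.12 points in PM offspring (adjusted p = 0.0335, limma) and differed by 0.36 points in Sham (adjusted p = 0.457). The Sham value rested on single libraries, since the log2 ratio of 0.14 became 0.28 without Sham replicate 4, the library at 7.18% (adjusted p = 0.0744, limma), and 0.039 without Sham replicate 3. The call in PM offspring was lost without any 1 of 7 libraries, namely PM replicates 3, 4 and 7 and PM-OVA replicates 3, 5, 6 and 8 (adjusted p of at most 0.0725), and on the percent scale (0.082). Of the 4 other low windows near the start, 3 also rose by about 1 point in Sham, from means of at most 1.51%, and 1 of these (chr5:75155916-75156654) rose in PM offspring. The other 3 had adjusted p of 0.781, 0.101 and 0.317 in PM offspring (limma). All of these levels lie near the floor of the scale. The windows at chr5:75152828-75153337 and chr5:75153340-75154364 also overlap the annotated gene Gm42802, and that at chr5:75154377-75155896 overlaps Gm42803.

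Beyond the low windows near the start, the Pdgfra windows that changed all fell. Of its 18 windows, 6 fell and 3 rose in Sham (22.3% and 13.3% of all tested windows). In PM offspring 7 fell and 2 rose (34.8% and 9.26% of all tested windows), so the falls in PM offspring lay near the share over all windows. The window at chr5:75192575-75195318, centred 41654 bp from the start, had the smallest p of all 80 windows in PM offspring. It ranged from 89.0 to 91.2% (median 90.5%) in Sham and from 84.7 to 88.3% (median 87.6%) in Sham-OVA. It ranged from 89.2 to 91.9% (median 90.5%) in PM and from 81.0 to 86.8% (median 85.0%) in PM-OVA, and neither arm overlapped. It fell by 3.45 points in Sham (adjusted p = 0.000158) and fell by 5.85 in PM offspring (adjusted p = 9.73e-08, limma), a difference between the arms of -2.40 points that did not pass the test (adjusted p = 0.637). The window at chr5:75178749-75181992 fell in Sham offspring from 87.3% ± 0.568 to 83.6% ± 1.36 (SD, n = 7 each, adjusted p = 4.6e-05, limma). In PM libraries it averaged 88.0% ± 0.878 (SD, n = 7) and in PM-OVA libraries 83.6% ± 1.57 (SD, n = 8), again a fall without overlap (adjusted p = 1.34e-06, limma).

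Pdgfrb encodes the PDGF receptor beta, which pericytes and smooth muscle use to respond to PDGF. It had more rises than any other member, with 6 rises and 2 falls among 12 windows in Sham and 5 rises and 2 falls in PM offspring. Over all tested windows, 13.3% rose and 22.3% fell in Sham, and 9.26% rose and 34.8% fell in PM offspring. The start window (chr18:61043971-61046552) ranged from 20.9 to 28.0% (median 22.7%) in Sham and from 27.5 to 34.6% (median 31.3%) in Sham-OVA. It ranged from 24.1 to 29.2% (median 24.9%) in PM and from 27.2 to 37.2% (median 29.5%) in PM-OVA, and both arms overlapped in their tails. It rose by 7.38 points in Sham (log2 ratio 0.53 ± 0.10 SE, adjusted p = 9.49e-05) and by 4.91 points in PM offspring (0.34 ± 0.09 SE, adjusted p = 0.00393, limma).

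The largest difference among the 80 windows was also in Pdgfrb, and this window was picked after its value was seen. The window at chr18:61057011-61061337, centred 14024 bp from the start and with 179 exonic bp, ranged from 41.8 to 51.8% (median 46.4%) in Sham and from 53.2 to 59.5% (median 57.4%) in Sham-OVA, without overlap. It ranged from 44.8 to 58.1% (median 49.4%) in PM and from 50.6 to 62.1% (median 55.2%) in PM-OVA, with overlap. The rise was 9.07 points in Sham (95% interval 5.07 to 13.1, adjusted p = 0.000729) and 5.93 points in PM offspring (2.05 to 9.81, adjusted p = 0.0131, limma). At the far end of the gene, by contrast, the window at chr18:61078547-61083189 fell by 3.55 points in Sham (adjusted p = 0.0024) and fell by 4.65 points in PM offspring (adjusted p = 7.8e-05), from 89.1 and 89.5%.

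Most windows of the 8 genes that rose shared a low or middle starting level, with an exception in Pdgfrb (81.4% in Sham). To keep the level apart from the difference, windows were sorted by the unchallenged libraries of the other arm. Of the 14 member windows under 50% in PM libraries, 10 rose and 0 fell in Sham offspring, while 22% of all windows of this level rose. Of the 29 member windows at 80% or more, 19 fell and 1 rose, while 29.9% of all such windows fell. With levels taken from Sham libraries, 8 of 15 member windows under 50% rose and 0 fell in PM offspring (18.7% of all such windows rose). At 80% or more, 20 of 28 fell and 0 rose (45.5% of all such windows fell). Between 50 and 80%, 8 of 37 member windows rose and 4 fell in Sham (21.6% and 10.8%), against 15.6% and 20.3% of all such windows. In PM offspring 6 of 37 rose and 9 fell (16.2% and 24.3%), against 10.5% and 33.7%. Over the 80 windows, Spearman's rho between starting level and OVA difference was -0.753 in Sham and -0.707 in PM offspring, a description across windows that share genes and libraries.

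**Figure D4:**
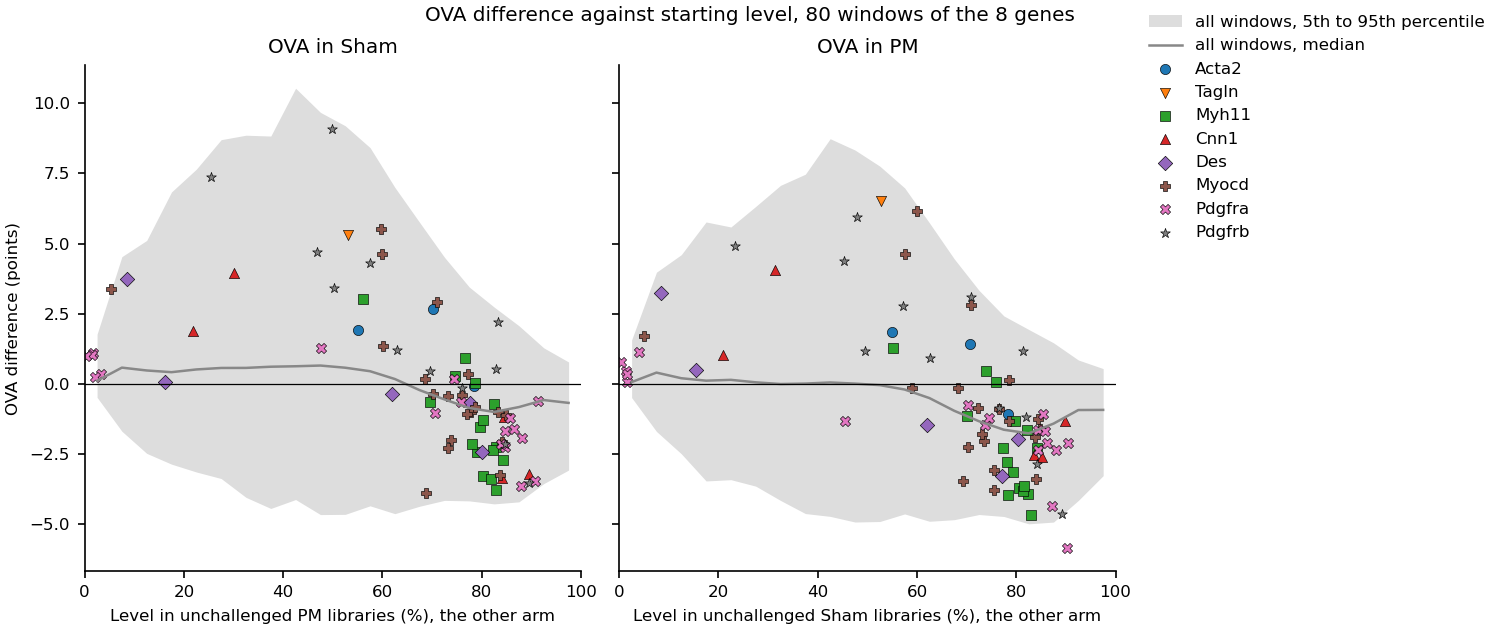
OVA difference (percentage points) of the 80 member windows (symbols by gene) against their level (%) in the unchallenged libraries of the other arm, for Sham (left) and PM (right) offspring, with the median (line) and the 5th to 95th percentile (grey) of all tested windows in steps of 5 points of level. Member windows under 50% lie mostly above the grey line, and those over 80% mostly below it.

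Averaged over a whole gene, rises and falls cancelled in several members. The mean over windows was compared for each of 38037 genes in the same model. In Sham offspring, 3 members rose and 2 fell (12% and 27.7% of all genes), and in PM offspring 1 rose and 2 fell (6.93% and 47.4% of all genes). Myh11 fell in Sham offspring from 77.7% ± 0.749 to 76.3% ± 1.07 (SD, n = 7 each, adjusted p = 0.00718, limma). It averaged 78.1% ± 0.576 in PM (SD, n = 7) and 75.8% ± 0.479 in PM-OVA libraries (SD, n = 8), also a fall (adjusted p = 2.45e-05, limma). Pdgfra fell by 0.84 points in Sham (adjusted p = 0.0092) and fell by 1.42 in PM offspring (adjusted p = 2.43e-05), but with centred libraries neither fall passed the test (adjusted p = 0.394 and 0.761, limma). Both genes had all PM-OVA libraries below all PM libraries. The share of all genes separated in this way was not counted, and 47.4% of all gene means fell in PM offspring.

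Pdgfrb rose as a whole gene in Sham offspring, from 64.2% ± 1.12 to 66.4% ± 0.969 (SD, n = 7 each, adjusted p = 0.00377), with a difference of 1.23 points in PM offspring (adjusted p = 0.0745, limma). That difference passed the test without PM replicate 1 or without PM replicate 4 (adjusted p = 0.0341 at the lowest, limma). Acta2 rose by 1.5 points in Sham (adjusted p = 0.0445), a call lost without Sham replicate 1 (adjusted p = 0.0749) and without any 1 of 8 other libraries (Sham replicates 4, 5 and 7 and Sham-OVA replicates 1, 2, 3, 4 and 6, up to 0.117). It was also lost with windows weighted by length (adjusted p = 0.117, limma). Tagln has 1 window, and its gene value is that window. The mean differences of Cnn1 (-0.39 and -0.28 points), Des (0.06 and -0.60 points) and Myocd (-0.07 and -0.63 points) did not pass the test in either arm, with adjusted p from 0.154 to 0.935. Without PM replicate 5, the Des mean passed the test in PM offspring (adjusted p = 0.0454, limma). With windows weighted by length, the means of Des and Myocd both passed it as falls in PM offspring (adjusted p = 0.0126 and 0.0374). With centred libraries, Cnn1 and Myocd had a higher mean after OVA in both arms and passed the test in PM offspring, and the Des mean in PM offspring also turned positive, so these directions depended on the scaling. Acta2 and Pdgfrb also passed the test in PM offspring with centred libraries (adjusted p = 0.0039 and 1.6e-05, limma).

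**Figure D5:**
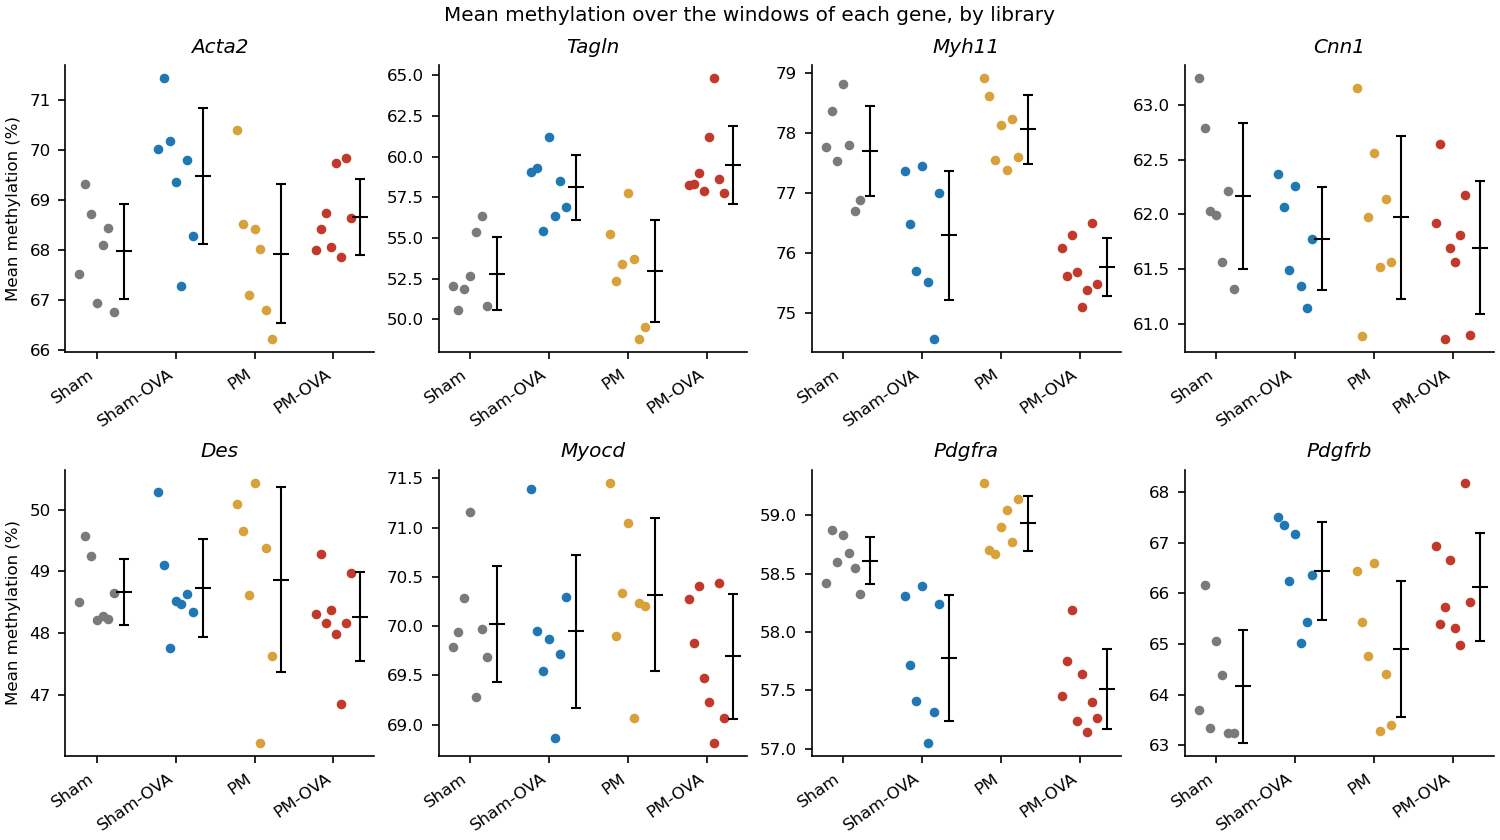
Mean methylation (%) over the windows of each of the 8 genes in each library (points), by group, with the group mean and SD (n = 7, 7, 7 and 8) beside the points. Vertical axes differ and do not start at 0. Myh11 and Pdgfra lie lower in PM-OVA than in PM, and Tagln lies higher.

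Maternal PM exposure left no called difference at these genes. Without OVA, 0 of the 80 windows differed between PM and Sham (1 at an unadjusted p under 0.05), and with OVA 0 differed between PM-OVA and Sham-OVA (7 at an unadjusted p under 0.05). The interaction (response to OVA in PM less the response in Sham offspring) was called in 0 windows (7 at an unadjusted p under 0.05). Over all tested windows the share called by limma was also 0.0% in each of these comparisons, with 5.79, 5.96 and 7.40% at an unadjusted p under 0.05. The interaction was below 0 in 60 of the 80 windows, with a median of -0.59 points, and over all tested windows it was below 0 in 71.6%, with the same median of -0.59 points.

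The windows with the smallest p show the size of what was seen. For PM without OVA this was a Pdgfra window (chr5:75156655-75160552) at 45.6% ± 0.489 in Sham and 47.5% ± 1.04 in PM, without overlap (SD, n = 7 each, adjusted p = 0.812, limma). For PM with OVA and for the interaction it was a Myocd window (chr11:65221076-65226243). There, Sham ranged from 74.1 to 78.2% and Sham-OVA from 74.5 to 75.9%, whereas PM ranged from 73.2 to 77.7% and PM-OVA from 71.9 to 74.1%. PM-OVA and Sham-OVA libraries did not overlap, and the difference was -2.14 points (95% interval -3.34 to -0.94, adjusted p = 0.816), and the interaction was -2.71 points (-4.43 to -0.98, adjusted p = 0.575, limma). For the whole-gene means, the interaction ranged from -1.06 points for Pdgfrb (-2.74 to 0.63) to 1.2 points for Tagln (-2.40 to 4.80), with adjusted p from 0.519 to 0.934.

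Genes that work with the 8 members were examined by lists. Over all tested windows, 13.3% rose and 22.3% fell in Sham, and 9.26% rose and 34.8% fell in PM offspring. The share of DMRs over all tested windows was 0.775% in Sham and 0.584% in PM offspring. At shares this low, having 0 or few DMRs does not set a list apart. The other contractile genes (12 genes such as the tropomyosins and myosin light chain kinase, 223 windows) had 54 rises and 32 falls in Sham and 40 rises and 74 falls in PM offspring. With centred libraries these counts were 65 and 23 in Sham and 66 and 39 in PM offspring, so the balance in PM offspring turned with the scaling. Tpm1, a tropomyosin, had a DMR (chr9:67038951-67042975, intronic) that rose by 10.5 points in Sham offspring and 6.83 in PM offspring. A window of Mylk, the kinase that starts contraction, rose by 10.01 points in Sham offspring, a DMR, and 6.07 in PM offspring, in a stretch that overlaps E130310I04Rik. Tpm2, another tropomyosin, had a window (chr4:43518441-43520197) that was a DMR in PM offspring, at 30.6% ± 1.73 in PM (SD, n = 7) and 44.9% ± 4.03 in PM-OVA (SD, n = 8), and rose by 8.37 points in Sham.

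SRF and related genes (7 genes, namely Srf, Mrtfa, Mrtfb, Foxo4, Klf4, Elk1 and Prkg1, 253 windows) had 33 rises and 88 falls in Sham. In PM offspring they had 20 rises and 132 falls. The falls made up 34.8% of the list in Sham and 52.2% in PM offspring, and no test of the list was made. Mrtfa, a myocardin-related SRF coactivator, had the largest DMR of the list (chr15:81042874-81045321), which fell by 14.4 points in Sham and fell by 13.9 in PM offspring from 70.5 and 71.0%. Its relative Mrtfb had a DMR that rose by 10.3 points in Sham offspring and 8.27 in PM offspring, where it overlaps Gm15738. Klf4, a repressor of contractile genes, had a DMR in PM offspring (chr4:55526888-55530189), at 45.1% ± 2.84 in PM (SD, n = 7) and 55.9% ± 2.28 in PM-OVA (SD, n = 8), and the window rose by 6.37 points in Sham.

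The PDGF ligands (4 genes, 67 windows) had 8 rises and 20 falls in Sham and 6 rises and 31 falls in PM offspring, with 0 DMRs. An intronic Pdgfd window (chr9:6305631-6316359) had the smallest p of the list in both arms and fell by 4.64 points in Sham and fell by 5.64 in PM offspring, from 87.5 and 87.6%. Other fibroblast genes (12 genes, 102 windows) had 19 rises and 20 falls in Sham and 10 rises and 42 falls in PM offspring, with 0 DMRs. Npnt, which encodes a matrix protein, had the smallest p in Sham, with a rise of 9.77 points. Lum, which encodes the matrix proteoglycan lumican, had the smallest p in PM offspring, where the window fell by 3.74 points. Pericyte genes (7 genes, 76 windows) had 8 rises and 12 falls in Sham and 4 rises and 30 falls in PM offspring. Their smallest p-values were in Cspg4 in Sham, where the window fell by 3.92 points, and in Abcc9 in PM offspring, where it fell by 4.23 points. Centring gave 25 rises and 17 falls for fibroblast genes and 12 rises and 9 falls for pericyte genes in Sham, so these balances also depended on the scaling. In PM offspring it gave 23 rises and 22 falls for fibroblast genes, 8 and 16 for pericyte genes, 12 and 19 for PDGF ligands and 40 and 94 for SRF and related genes. Without Sham replicate 1, fibroblast genes had 20 rises and 18 falls in Sham, which turned that balance too.

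The genes most like the members were sought by the mean methylation of a gene less the mean over all windows in each library. Of 18859 genes outside the lists, those with the highest Pearson's r to the mean of the 8 members on this scale over the 29 libraries were Ppp1r12a (0.898), Plxnd1 (0.893), Ptpn3 (0.893), Klf7 (0.89) and Ap1g1 (0.889). The libraries share the OVA contrast, and these values are a description.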

How the data were processed

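The authors spiked lung DNA with unmethylated lambda DNA, trimmed reads with Trim Galore, and mapped and called methylation with DRAGEN on GRCm38. The deposited values are percent methylation for windows of a fixed number of CpG cytosines that overlap genes, with 1 gene name per window and without counts or coverage, so no counting error can be given. Per the labels, samples were grouped by dam and challenge. Windows with at least 3 values per group were kept (259167 of 260686). Percentages were put on a log2 scale (methylated over unmethylated percent, each plus 1 point), and limma (version 3.58.1, R 4.3.3) was fitted to all 29 libraries with the 4 groups, with 2-sided p adjusted by Benjamini-Hochberg over every tested window. This moderated test replaced the count test of the study, since no counts were used here. Intervals come from the same fit on percentages. Gene means were fitted likewise over 38037 genes. DMRs were called windows that differed by 10 points or more. Starts, exons and neighbouring genes were read from GENCODE M21 and RefSeq GRCm38.p6 with Python 3.11.15. The script was tested on simulated data. Named windows are each gene's start window, its window of smallest p in each OVA comparison, and the smallest p over all members in the other comparisons. For lists, they are up to 3 DMRs of largest difference, at most 1 per gene, or else the smallest p. The members and lists were chosen with earlier results of these data known. The alternatives were another offset, the percent scale, centred libraries, a replicate block, complete windows only, each comparison's own 2 groups, other thresholds, other gene means, and each library left out in turn.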

Additional observations from a re-analysis of the deposited data

Results flagged for a closer look

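In 104 groups of libraries (the gene means and the named windows), 3 had a library far from the others, and chance alone gives about 1 in 20. PM-OVA replicate 3 had 30.4% in the second Cnn1 window, against 34.1 to 35.6% in the other PM-OVA libraries. Without it, the rise in PM offspring was larger, with a log2 ratio of 0.30 against 0.26. PM-OVA replicate 2 had 81.0% in the Pdgfra window at chr5:75192575-75195318, against 84.1 to 86.8% in the others, and without it the window still fell (log2 ratio -0.69 against -0.74). PM replicate 4 had 91.4% in the Pdgfrb window at chr18:61078547-61083189, against 88.7 to 89.8%, and without it the fall in PM offspring was -0.51 against -0.56. In 0 of the 80 windows did all OVA libraries of one arm move one way and all of the other arm the opposite way.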

How the results depend on the processing

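The table holds no coverage, so the number of libraries limits the precision, and windows of about 50 CpG cannot show changes at single CpGs. The count of member windows called after OVA stayed within 1.5 times the reported 42 and 43 under another offset, the percent scale, centring, complete windows and each arm's own groups. It ranged from 33 to 42 in Sham and from 39 to 45 in PM offspring when 1 library was left out, and the 0 calls for PM exposure, the interaction and DMRs stayed at 0. With an adjusted p under 1e-06, 0 windows were called in Sham and 1 in PM offspring, and 0 start windows in each arm. A 5-point minimum gave 4 DMRs in each arm. Start windows called were 6 in Sham and from 4 to 5 in PM offspring without 1 library, and centring gave 8 in PM offspring. These alternatives for start windows were chosen after seeing the data. Gene means called in PM offspring were 6 with centring and 5 with windows weighted by length, against 3, were 2 with windows over 1 gene only, and ranged from 3 to 4 without 1 library. In Sham they ranged from 4 to 5.

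None of the values that changed sign was called as reported. Centring gave log2 ratios of 0.0097 in Sham and 0.060 in PM offspring for the Cnn1 mean, 0.043 in PM for Des, 0.028 and 0.035 for Myocd, 0.031 and 0.0084 for the middle Acta2 window, 0.0076 in Sham for the Myocd window at chr11:65221076-65226243, and 0.020 in PM for the Pdgfra window at chr5:75156655-75160552. Only windows over 1 gene gave 0.018 for Cnn1 in Sham, and weighting by length gave -0.040 for Des in Sham. Leaving out 1 library gave ranges in Sham of -0.011 to 0.013 for Des, -0.021 to 0.0082 for Myocd, -0.027 to 0.020 for the Acta2 window and -0.048 to 0.0047 for the Myocd window. The cause was not tested.

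The replicate numbers did not pair the libraries. Deviations of same-numbered libraries correlated between -0.041 and 0.104 over 42 pairs, with a median of 0.014, and 8 of 29 libraries correlated best with their own number. With the number as a block, 39 windows were called in Sham and 42 in PM offspring, and 6 and 4 start windows. The block gave adjusted p of 0.052 for the Acta2 mean in Sham, 0.044 for the Pdgfrb mean in PM and 0.065 for the Pdgfra start window in PM offspring (limma), and changed no other call of a named window or gene mean.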
